A study of Mus musculus with 6 samples.

Results

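The genes examined here are 37 genes of the amino acid stress response and of tRNA charging, among 53390 annotated genes whose transcripts were quantified. They were chosen by name as the transcription factors of the integrated stress response, its feedback and effector genes, enzymes of serine, mitochondrial one-carbon, asparagine, proline and cysteine synthesis, and cytosolic tRNA synthetases known as targets of ATF4. Gene expression was measured by strand-specific, poly(A)-selected RNA-seq in mouse embryonic stem cells (mESCs) in TKO-2i (n = 3) and TKO-serum (n = 3), to compare mESCs in a naïve ground state with mESCs in serum. TKO mESCs (Dnmt1-/-, Dnmt3a-/-, Dnmt3b-/-) lack the enzymes that methylate DNA, and descend from the male J1 line of the 129S4/SvJae strain. Both groups therefore lack functional copies of the same 3 genes, and results apply to this line. TKO-serum cells grew in high-glucose DMEM with 15% FCS, non-essential amino acids, pyruvate, beta-mercaptoethanol and LIF at 500 U/ml. TKO-2i cells were kept for 14 days in serum-free N2B27, a blend of DMEM F-12 and Neurobasal with the N2 and B27 supplements, BSA and monothioglycerol, together with the MEK inhibitor PD0325901 (1 µM), the GSK3 inhibitor CHIR99021 (3 µM) and LIF at 1000 U/ml. The inhibitors, the absence of serum, the basal medium with its amino acids and the dose of LIF changed together and cannot be told apart in this comparison.

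In the integrated stress response, kinases that sense missing amino acids, unfolded protein in the endoplasmic reticulum, double-stranded RNA or lack of haem phosphorylate the translation factor eIF2. General protein synthesis then slows while the mRNA of Atf4 is translated better, and ATF4 protein, paired with C/EBP partners, activates genes for making, importing and charging amino acids. Much of this control acts on translation and on protein, which RNA levels do not show.

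Estimated counts summed to 46228700, 44180642 and 43896549 in replicates 1, 2 and 3 of TKO-2i. In TKO-serum the sums were 38274042, 51932739 and 44827609. A gene with 3 counts had between 0.0578 and 0.0784 CPM (counts scaled to library size), a bound for counting error only. The labels call the replicates biological. Across genes, Pearson's r was at least 0.988 within a condition and at most 0.938 between conditions, and no pair of libraries of a condition agreed within counting noise (chi-square per gene of at least 4.78). An exact two-sided permutation test of 3 against 3 samples cannot go below p = 0.1, so single genes were tested with a model fitted over all genes. CPM values below use TMM-normalised library sizes, and log2 fold changes are those of TKO-2i over TKO-serum with their standard error (SE).

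The targeted genes were still transcribed in all 6 libraries. Dnmt1 had 149.6, 154 and 155 CPM in TKO-2i against 129, 129.6 and 129 CPM in TKO-serum, Dnmt3a 7.14, 7.46 and 7.36 and 30.2, 29.4 and 30.7 CPM, and Dnmt3b 19.0, 20.3 and 20.6 and 43.1, 42.3 and 44.0 CPM. Values summed per gene do not resolve the disrupted exons and so do not check the deletions. Dnmt1 was higher in TKO-2i (log2 fold change of 0.24 ± 0.05 SE, edgeR quasi-likelihood test with Benjamini-Hochberg adjusted p = 0.0022). The call of Dnmt1 was lost with limma on log2(TPM + 1) (0.17) and on log2(TPM + 0.1) (0.18). Dnmt3a and Dnmt3b RNA was lower, with log2 fold changes of -2.04 and -1.11 (adjusted p = 6.3e-08 and 7.1e-07 in edgeR's quasi-likelihood F-test after Benjamini-Hochberg adjustment).

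Markers of pluripotent cells were abundant in every library. The 5 genes Pou5f1, Sox2, Nanog, Zfp42 and Esrrb summed to 2526, 2499 and 2367 TPM (abundance scaled for transcript length) in TKO-2i and 2773, 2847 and 2789 TPM in TKO-serum. Pou5f1 was the most abundant, and 2 of the 5 were higher (Nanog, Esrrb) and 2 lower (Sox2, Zfp42) in TKO-2i. The 5 fibroblast markers, which would show feeder cells (the study's methods state that TKO cells had none), summed to 4.06, 4.77 and 4.53 TPM in TKO-2i and 5.51, 6.22 and 5.77 TPM in TKO-serum, with 2 of the 3 tested lower in TKO-2i (Col1a2, Thy1), Thy1 the most abundant and Col3a1 and Postn at 0 in at least 1 library. Of the 5 primitive endoderm markers, 4 were lower in TKO-2i, and their sums were 8.14, 9.70 and 10.4 TPM in TKO-serum and 4.40, 5.29 and 4.16 TPM in TKO-2i, with Gata4 the most abundant and Foxa2 at 0 in 1 library. The 5 trophoblast markers summed to 4.40, 3.36 and 4.81 TPM in TKO-2i and 2.95, 2.76 and 2.32 TPM in TKO-serum, with 1 higher (Cdx2), 2 lower and Psca at 0 in at least 1 library. Cdx2 was the most abundant of these over all libraries, and Hand1 in TKO-serum.

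The 5 mesoderm markers had sums of 219.6, 238 and 209 TPM in TKO-2i and 236, 229 and 235 TPM in TKO-serum, mostly from Lefty2, and T and Eomes were higher in TKO-2i. The 5 neural markers had 90.3, 91.1 and 87.8 TPM in TKO-2i and 134, 137 and 134 TPM in TKO-serum, mostly from Tubb3, with 3 lower (Sox1, Pax6, Tubb3) and 1 higher (Nes). Neurog2 was not tested, with 0 counts in all 3 TKO-2i libraries and 0, 2 and 2 counts in TKO-serum. These lists moved with the culture condition, and their part in the results below was not tested. In bulk RNA, fewer cells that express a gene and less of its RNA per cell cannot be told apart. The sequencing pool of each library was not given in the sources used here, and its part was not tested.

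Most of the stress-response genes were higher in TKO-2i. Of the 37 genes, 36 passed the filter on low counts, all but Fgf21, and TKO-2i was higher for 24 of those, with an adjusted p-value under 0.05 (66.7%), against 31.9% of all 18177 tested genes. Lower in TKO-2i were 4 (11.1%), against 30.6% of all tested genes, and they were Ddit3, Cebpb, Sesn2 and Cth. The remaining 8 did not pass the test, namely Cebpg, Chac1, Phgdh, Aldh1l2, Sars, Wars, Eprs and Lars. With a fold change of at least 2 as well, 7 were higher (19.4%, against 7.72% of all tested genes), and these were Nupr1, Asns, Atf3, Pycr1, Atf4, Aldh18a1 and Vldlr. With limma that count was 3 on log2(TPM + 1) (Nupr1, Asns and Atf4) and 5 on log2(TPM + 0.1), with Atf3 and Vldlr added. The count at least 2-fold lower was 0, against 15.6% of all tested genes in edgeR, and 0 with DESeq2, and it is 0 at any p-value since the lowest log2 fold change in the group was that of Cebpb (-0.69). Every TKO-2i library was above every TKO-serum library for 25 of them (69.4%, against 34.0% of tested genes), and below for 4 (11.1%, against 33.5%). The genes were chosen with earlier results of these data known, so these shares are not independent of the choice. Over the 36 genes the log2 fold change had a median of 0.33, beside 0.01 over all tested genes and 0.07 over tested genes with a mean of at least 1 CPM. As a share of all transcripts, the 37 genes took 0.401% of TPM in TKO-2i and 0.289% in TKO-serum, and their summed TPM was 3982, 4240.3 and 3810.3 in TKO-2i and 2805, 2914 and 2939 in TKO-serum.

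**Figure D1:**
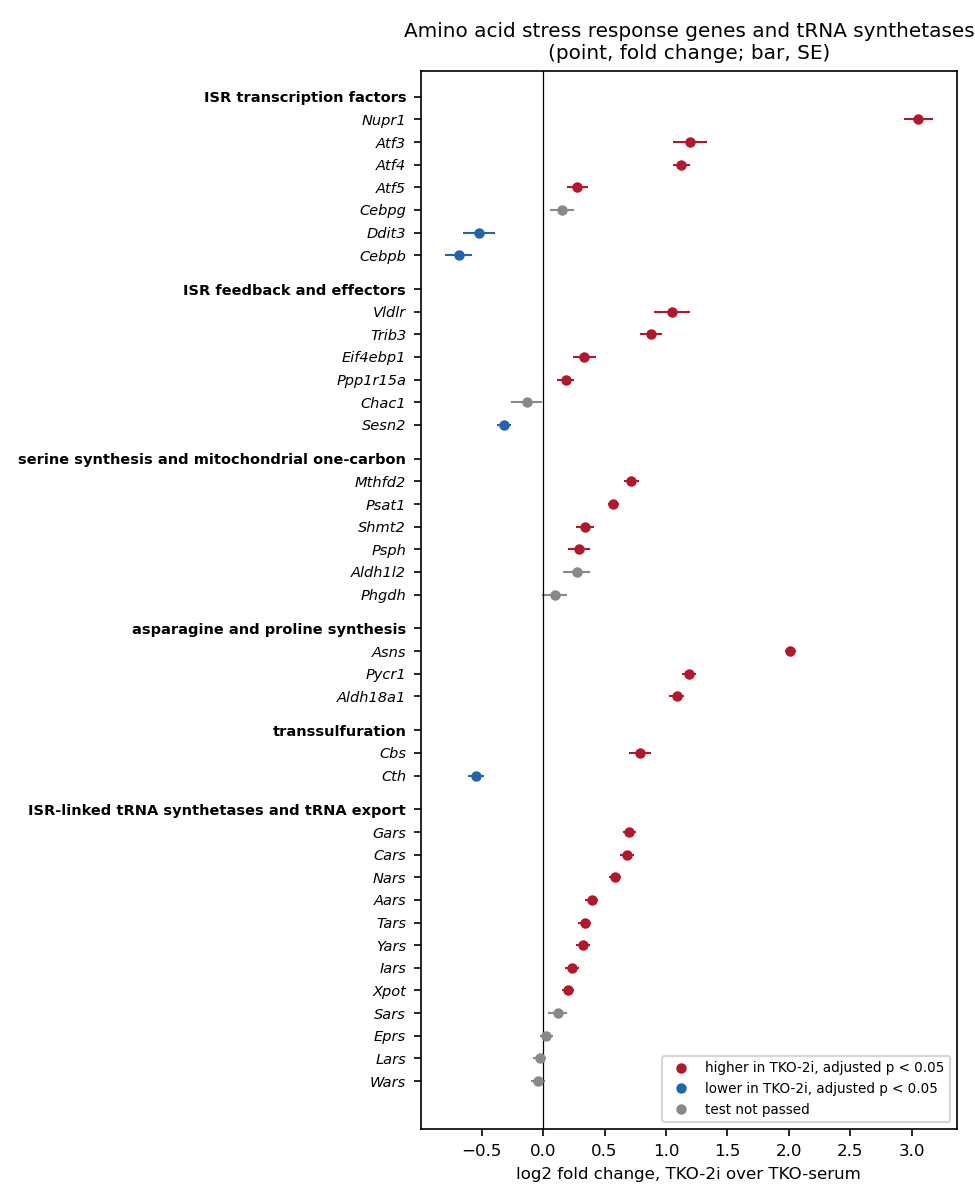
Log2 fold change of TKO-2i over TKO-serum (horizontal axis) for the 36 tested genes, grouped by role, with points for the fold change, bars for its SE and colours for the test. Nupr1 (3.05) and Asns (2.01) lie farthest to the right, and Cebpb (-0.69), Cth (-0.55), Ddit3 (-0.52) and Sesn2 (-0.32) are the genes on the left that passed the test.

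Among the 7 transcription factors, 4 were higher (Nupr1, Atf3, Atf4, Atf5), 2 lower (Cebpb, Ddit3) and 1 did not pass the test (Cebpg). Atf4 (ENSMUSG00000042406; chr15:80255184-80257541 of GRCm38) encodes the central activator of the pathway. Its CPM was 336, 302 and 313 in replicates 1, 2 and 3 of TKO-2i and 152, 135 and 149 in those of TKO-serum, with means of 317 ± 17.5 and 145 ± 8.90 CPM (SD, n = 3). The lowest TKO-2i library was thus well above the highest TKO-serum library, and the difference was a log2 fold change of 1.13 ± 0.07 SE (edgeR quasi-likelihood test with Benjamini-Hochberg adjusted p = 2e-06). Nupr1 (ENSMUSG00000030717; chr7:126623249-126630861 of GRCm38), a small stress-induced chromatin protein, showed the largest rise of the 36 genes. Its CPM was 51.1, 43.2 and 47.2 in TKO-2i and 5.78, 4.77 and 6.53 in TKO-serum, with no overlap, which gave a log2 fold change of 3.05 ± 0.12 SE (edgeR quasi-likelihood test with Benjamini-Hochberg adjusted p = 2.1e-07). Atf3 (ENSMUSG00000026628; chr1:191170296-191218039 of GRCm38), a bZIP factor switched on early in stress, was far less abundant, at 4.98, 4.27 and 4.10 CPM in TKO-2i compared with 1.69, 1.92 and 2.20 CPM in TKO-serum. The groups did not overlap (log2 fold change of 1.20 ± 0.14 SE, edgeR quasi-likelihood test with Benjamini-Hochberg adjusted p = 9.4e-05), and with limma on log2(TPM + 1), which compresses genes of low abundance, the log2 fold change of Atf3 was 0.72.

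Atf5, a relative of Atf4 that is also under translational control, had 33.1, 27.1 and 29.7 CPM in TKO-2i against 26.0, 22.9 and 25.3 CPM in TKO-serum. The groups were close but did not overlap (log2 fold change of 0.28 ± 0.08 SE, edgeR quasi-likelihood test with Benjamini-Hochberg adjusted p = 0.019). This call was lost without TKO-2i replicate 1 (0.19), TKO-2i replicate 3 (0.28) or TKO-serum replicate 2 (0.23). It was also lost with limma on log2(TPM + 1) (0.14) and on log2(TPM + 0.1) (0.15). Cebpg, a dimer partner of ATF4, had 29.5 ± 3.48 CPM in TKO-2i against 26.5 ± 2.18 CPM in TKO-serum (SD, n = 3), with overlapping groups (log2 fold change of 0.15 ± 0.09 SE, edgeR quasi-likelihood test with Benjamini-Hochberg adjusted p = 0.2). Cebpg passed the test as higher with the replicate block (0.15).

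The genes for CHOP and C/EBPβ had the opposite direction. Ddit3 encodes CHOP, the factor tied to cell death in prolonged stress, and had 4.51, 4.64 and 4.85 CPM in TKO-2i compared with 7.10, 5.51 and 7.55 CPM in TKO-serum. These values are for the annotated Ddit3 identifier with more counts, and the other identifier was not added to it. Every TKO-2i library was below every TKO-serum library, and TKO-serum replicate 2 was the nearest to them (log2 fold change of -0.52 ± 0.13 SE, edgeR quasi-likelihood test with Benjamini-Hochberg adjusted p = 0.0068). Cebpb, whose product pairs with ATF4 and CHOP, had 2.50, 2.21 and 2.23 CPM in TKO-2i against 3.89, 3.72 and 3.57 CPM in TKO-serum, again without overlap (log2 fold change of -0.69 ± 0.11 SE, edgeR quasi-likelihood test with Benjamini-Hochberg adjusted p = 0.00069). Both genes were low, at 9.58 and 8.09 TPM in TKO-serum beside 116 TPM for Atf4.

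**Figure D2:**
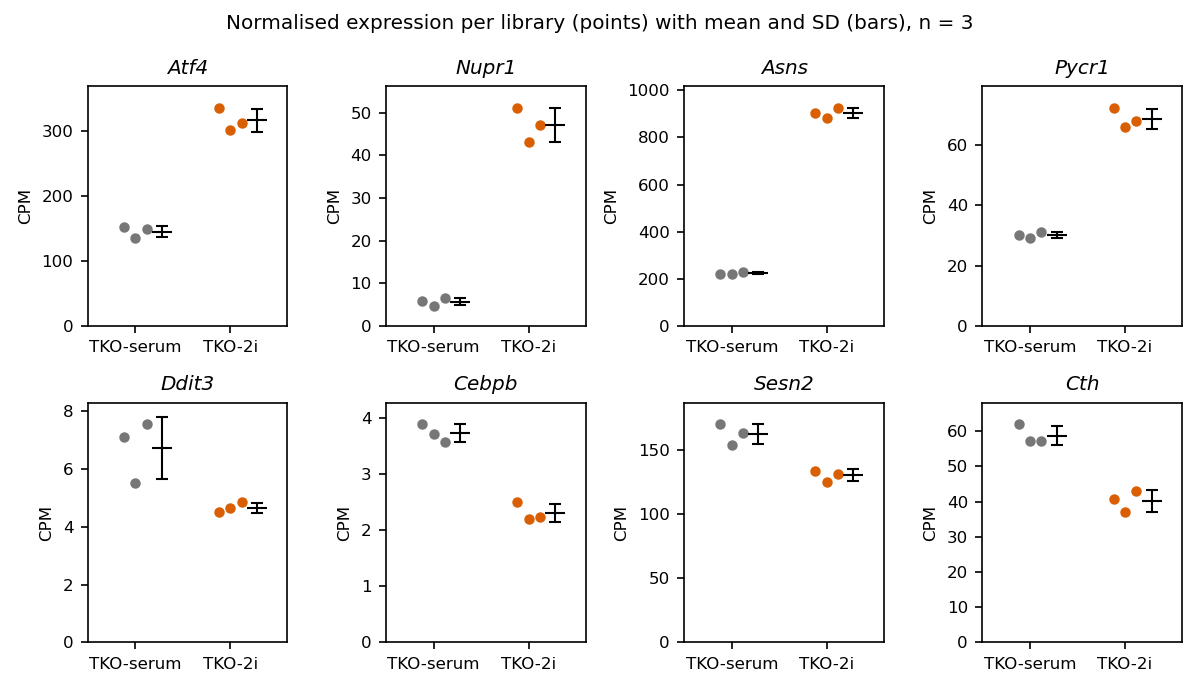
Normalised expression in CPM (vertical axes from 0) of 8 genes in the 3 TKO-serum (grey) and 3 TKO-2i (orange) libraries, with the mean and SD of each group beside the points. Atf4, Nupr1, Asns and Pycr1 were higher in every TKO-2i library, and Ddit3, Cebpb, Sesn2 and Cth were lower.

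The feedback and effector genes were mixed, with 4 of 6 tested genes higher, 1 lower and 1 that did not pass the test. Vldlr (ENSMUSG00000024924; chr19:27216484-27254231 of GRCm38), the very-low-density lipoprotein receptor, rose from 2.80, 2.69 and 3.02 CPM in TKO-serum to 5.96, 6.89 and 4.74 CPM in TKO-2i. The TKO-2i libraries varied more than those of TKO-serum, and the groups did not overlap (log2 fold change of 1.05 ± 0.15 SE, edgeR quasi-likelihood test with Benjamini-Hochberg adjusted p = 0.00032). Trib3, a pseudokinase that restrains ATF4 in a feedback loop, had 46.4, 37.6 and 40.5 CPM in TKO-2i compared with 22.9, 20.8 and 24.1 CPM in TKO-serum. Its groups lay far apart (log2 fold change of 0.88 ± 0.09 SE, edgeR quasi-likelihood test with Benjamini-Hochberg adjusted p = 4.6e-05). Eif4ebp1, a repressor of cap-dependent translation, was the second most abundant of the 37 genes, with 429, 402 and 392 TPM in TKO-2i and 350.5, 358 and 372 TPM in TKO-serum. On the CPM scale it had 411, 314 and 373 in TKO-2i and 302, 271 and 298 in TKO-serum, where TKO-2i replicate 2 was close to the TKO-serum libraries (log2 fold change of 0.34 ± 0.10 SE, edgeR quasi-likelihood test with Benjamini-Hochberg adjusted p = 0.015). The call was lost without TKO-2i replicate 1 (0.23), TKO-2i replicate 3 (0.32) or TKO-serum replicate 2 (0.29), and limma on log2(TPM + 1) gave 0.18.

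Ppp1r15a, the stress-induced subunit that guides a phosphatase to eIF2, had 41.2 ± 2.88 CPM in TKO-2i compared with 36.2 ± 1.91 CPM in TKO-serum (SD, n = 3). This was near the threshold (log2 fold change of 0.18 ± 0.07 SE, edgeR quasi-likelihood test with Benjamini-Hochberg adjusted p = 0.041), and the call of Ppp1r15a was lost with DESeq2, with DESeq2's size factors, with either other filter, with limma on TPM and without any 1 library other than TKO-2i replicate 2, at log2 fold changes between 0.12 and 0.23. Sesn2 encodes sestrin 2, a leucine sensor that restrains mTORC1, and was the abundant exception among the effectors. It had 134, 125 and 132 CPM in TKO-2i against 170.3, 154 and 163 CPM in TKO-serum, lower in every TKO-2i library (log2 fold change of -0.32 ± 0.06 SE, edgeR quasi-likelihood test with Benjamini-Hochberg adjusted p = 0.0015). Chac1, which breaks down glutathione, had 13.7, 11.9 and 9.69 CPM in TKO-2i compared with 13.2, 11.8 and 13.7 CPM in TKO-serum, with overlapping groups (log2 fold change of -0.13 ± 0.12 SE, edgeR quasi-likelihood test with Benjamini-Hochberg adjusted p = 0.38). Fgf21, an endocrine factor of the starvation response, had between 0.0188 and 0.112 CPM in the 6 libraries, around the level of 3 counts, and was removed by the filter.

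All 3 genes of asparagine and proline synthesis rose at least 2-fold in TKO-2i. Asns (ENSMUSG00000029752; chr6:7675169-7693254 of GRCm38), which makes asparagine from aspartate and glutamine, had the highest mean TPM of the 37 genes over all libraries. It had 903, 881 and 926 CPM in TKO-2i against 221, 222 and 229 CPM in TKO-serum, so that the replicates of each group lay close together and the groups far apart. This was a 4.04-fold difference and a log2 fold change of 2.01 ± 0.05 SE (edgeR quasi-likelihood test with Benjamini-Hochberg adjusted p = 2.6e-08). Per length, Asns had 589, 668 and 598 TPM in TKO-2i and 151, 166 and 168 TPM in TKO-serum. Asns lies on chromosome 6, whose tested genes as a whole had a median log2 fold change of 0.41 (0.50 with a mean of at least 1 CPM), as do Gars and Mthfd2. With TMM factors taken from genes outside chromosomes 6 and 11, the log2 fold change of Asns was 2.05. Such factors rescale whole libraries and do not take out a shift of chromosome 6.

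Proline is made from glutamate by Aldh18a1 and then by reductases such as Pycr1. Aldh18a1 (ENSMUSG00000025007; chr19:40550257-40588463 of GRCm38) had 136, 125 and 127 CPM in TKO-2i compared with 62.8, 57.9 and 62.0 CPM in TKO-serum, with no overlap (log2 fold change of 1.09 ± 0.06 SE, edgeR quasi-likelihood test with Benjamini-Hochberg adjusted p = 1.4e-06). Pycr1 (ENSMUSG00000025140; chr11:120635712-120643769 of GRCm38), the mitochondrial reductase of the last step, had 72.3, 65.9 and 68.1 CPM in TKO-2i against 30.2, 29.0 and 31.2 CPM in TKO-serum. These groups were also clearly separate (log2 fold change of 1.19 ± 0.06 SE, edgeR quasi-likelihood test with Benjamini-Hochberg adjusted p = 5.6e-07), on chromosome 11, whose tested genes had a median of 0.26. Of 10 other enzymes of asparagine, aspartate, glutamine, proline and ornithine, 3 were higher and 4 lower (Got1, Asrgl1, Glul, Aldh4a1), beside 31.9% and 30.6% of all tested genes. The other 3 did not pass the test, and the median of the 10 was -0.13. Oat, which links ornithine to proline, had the largest rise (log2 fold change of 1.53 ± 0.07 SE, edgeR quasi-likelihood test with Benjamini-Hochberg adjusted p = 6e-07), and Got1, the cytosolic aspartate aminotransferase, the largest fall (log2 fold change of -0.59 ± 0.06 SE, edgeR quasi-likelihood test with Benjamini-Hochberg adjusted p = 5.6e-05). Pycrl, a relative of Pycr1, had a log2 fold change of -0.04 and did not pass the test (adjusted p = 0.79 in edgeR's quasi-likelihood F-test after Benjamini-Hochberg adjustment).

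Of the 3 enzymes of serine synthesis, Psat1 and Psph were higher in TKO-2i and Phgdh did not pass the test. Phgdh, the first enzyme of the pathway from glycolysis, had 202, 155 and 179 CPM in TKO-2i compared with 178, 153 and 171 CPM in TKO-serum. The groups overlapped (log2 fold change of 0.09 ± 0.10 SE, edgeR quasi-likelihood test with Benjamini-Hochberg adjusted p = 0.45). Psat1, the aminotransferase of the next step, had 468, 446 and 449 CPM in TKO-2i against 304, 307 and 306 CPM in TKO-serum, with very close TKO-serum replicates and no overlap (log2 fold change of 0.57 ± 0.05 SE, edgeR quasi-likelihood test with Benjamini-Hochberg adjusted p = 1.2e-05). Psph, the phosphatase that completes serine, had 36.9 ± 4.07 CPM in TKO-2i against 30.2 ± 2.32 CPM in TKO-serum (SD, n = 3; log2 fold change of 0.29 ± 0.09 SE, edgeR quasi-likelihood test with Benjamini-Hochberg adjusted p = 0.02). The call of Psph was lost without TKO-2i replicate 1 (0.18), TKO-serum replicate 2 (0.24) or TKO-serum replicate 3 (0.28).

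The mitochondrial folate enzymes take one-carbon units from serine. Shmt2, which splits serine to glycine, had 281 ± 22.6 CPM in TKO-2i compared with 222 ± 12.9 CPM in TKO-serum (SD, n = 3; log2 fold change of 0.34 ± 0.07 SE, edgeR quasi-likelihood test with Benjamini-Hochberg adjusted p = 0.0035), and with limma on log2(TPM + 1) its log2 fold change was 0.18. Mthfd2, the dehydrogenase of the following step, had 162, 149.9 and 145 CPM in TKO-2i compared with 96.4, 90.8 and 90.5 CPM in TKO-serum, without overlap (log2 fold change of 0.72 ± 0.06 SE, edgeR quasi-likelihood test with Benjamini-Hochberg adjusted p = 1.5e-05). Mthfd2 lies on chromosome 6, whose tested genes had a median log2 fold change of 0.41 (0.50 with a mean of at least 1 CPM). Aldh1l2, which makes NADPH from the same folate pool, was low, at 4.33, 4.96 and 4.24 CPM in TKO-2i against 3.50, 3.65 and 4.05 CPM in TKO-serum. Its groups did not overlap, but it did not pass the test (log2 fold change of 0.27 ± 0.11 SE, edgeR quasi-likelihood test with Benjamini-Hochberg adjusted p = 0.057), and it passed with TMM factors from outside chromosomes 6 and 11 (0.31) and with the replicate block (0.27), while limma on log2(TPM + 1) gave -0.01. Of 12 other one-carbon enzymes, 7 were higher and 3 lower (Gldc, Mthfd1, Mthfd2l), beside 31.9% and 30.6% of all tested genes. The other 2 did not pass the test (Tyms, Gcsh), and the median of the 12 was 0.33. Aldh1l1, the cytosolic relative of Aldh1l2, had 55.0, 49.4 and 52.6 CPM in TKO-2i compared with 7.26, 6.47 and 7.53 CPM in TKO-serum (log2 fold change of 2.89 ± 0.08 SE, edgeR quasi-likelihood test with Benjamini-Hochberg adjusted p = 4.2e-08), and lies on chromosome 6. Mthfd2l, the paralogue of Mthfd2, was scarce and lower, at 0.518 and 1.33 CPM (log2 fold change of -1.35 ± 0.23 SE, edgeR quasi-likelihood test with Benjamini-Hochberg adjusted p = 0.00087), and with limma on log2(TPM + 1) its log2 fold change was -0.81.

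The 2 enzymes of transsulfuration moved in opposite directions. Cbs, which joins homocysteine to serine, had 44.6, 36.9 and 48.0 CPM in TKO-2i against 24.9, 25.5 and 24.6 CPM in TKO-serum, higher in every TKO-2i library (log2 fold change of 0.79 ± 0.09 SE, edgeR quasi-likelihood test with Benjamini-Hochberg adjusted p = 0.0001). Cth, which releases cysteine from the product, had 40.8, 36.9 and 43.0 CPM in TKO-2i compared with 62.0, 57.3 and 57.1 CPM in TKO-serum, lower in every TKO-2i library (log2 fold change of -0.55 ± 0.07 SE, edgeR quasi-likelihood test with Benjamini-Hochberg adjusted p = 0.00015). In the neighbouring methionine and glutathione pathways, 2 of 9 genes were higher (Bhmt, Gss) and 3 lower (Gclc, Gclm, Ggct), beside 31.9% and 30.6% of all tested genes. The other 4 did not pass the test, and the median of the 9 was 0.13. Bhmt, which remakes methionine from homocysteine with betaine, rose from 1.84, 1.73 and 1.68 CPM in TKO-serum to 77.3, 64.0 and 65.9 CPM in TKO-2i (log2 fold change of 5.31 ± 0.10 SE, edgeR quasi-likelihood test with Benjamini-Hochberg adjusted p = 1.6e-08). Ggct, a glutathione-pathway cyclotransferase, was lower, at 10.1 ± 0.572 CPM in TKO-2i against 15.2 ± 0.559 CPM in TKO-serum (SD, n = 3; log2 fold change of -0.59 ± 0.07 SE, edgeR quasi-likelihood test with Benjamini-Hochberg adjusted p = 0.00013).

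Of the 11 tRNA synthetase genes among the 37, which attach amino acids to their tRNAs, 7 were higher in TKO-2i, 0 were lower and 4 did not pass the test, beside 31.9% higher and 30.6% lower among all tested genes. The count lower was also 0 with DESeq2 and, in edgeR, at an unadjusted p-value under 0.05, but limma on TPM called 1 lower (Wars). The 7 had log2 fold changes from 0.23 to 0.70, all under a 2-fold rise. Gars, for glycine, was the third most abundant of the 37 genes, with 309, 318 and 296 TPM in TKO-2i and 198, 202 and 200.3 TPM in TKO-serum. On the CPM scale Gars had 613, 559 and 591 in TKO-2i and 372, 353 and 359.8 in TKO-serum, with no overlap (log2 fold change of 0.70 ± 0.05 SE, edgeR quasi-likelihood test with Benjamini-Hochberg adjusted p = 7.8e-06). Gars lies on chromosome 6, whose tested genes had a median log2 fold change of 0.41 (0.50 with a mean of at least 1 CPM). Cars, for cysteine, had 238, 227 and 236 CPM in TKO-2i against 148, 139 and 150.0 CPM in TKO-serum (log2 fold change of 0.68 ± 0.05 SE, edgeR quasi-likelihood test with Benjamini-Hochberg adjusted p = 1e-05), and Nars, for asparagine, had 490.4, 465 and 469 and 322, 308 and 316 CPM (log2 fold change of 0.59 ± 0.05 SE, edgeR quasi-likelihood test with Benjamini-Hochberg adjusted p = 1.3e-05). Both were higher in every TKO-2i library. The rises of Aars (alanine), Tars (threonine) and Yars (tyrosine) were smaller, with log2 fold changes of 0.39, 0.34 and 0.33 (adjusted p = 0.0002, 0.00047 and 0.0011 in edgeR's quasi-likelihood F-test after Benjamini-Hochberg adjustment) and no overlap between groups.

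Iars (isoleucine) had 447, 501 and 449 CPM in TKO-2i compared with 384, 403 and 399.9 CPM in TKO-serum (log2 fold change of 0.23 ± 0.06 SE, edgeR quasi-likelihood test with Benjamini-Hochberg adjusted p = 0.0078). Xpot, the exportin that carries tRNAs out of the nucleus, had 226, 241 and 226 CPM in TKO-2i against 197, 204 and 201 CPM in TKO-serum (log2 fold change of 0.20 ± 0.05 SE, edgeR quasi-likelihood test with Benjamini-Hochberg adjusted p = 0.0079). The calls of Iars and Xpot were lost with limma on log2(TPM + 1), at 0.13 and 0.19. Sars (serine), Eprs (glutamate and proline), Lars (leucine) and Wars (tryptophan) had log2 fold changes of 0.12, 0.03, -0.03 and -0.04 with overlapping groups. They did not pass the test (adjusted p = 0.23, 0.68, 0.65 and 0.56 in edgeR's quasi-likelihood F-test after Benjamini-Hochberg adjustment), though Wars was called lower with limma on TPM (-0.18). Sars passed as higher with the replicate block (0.12).

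Among 13 genes for the other cytosolic synthetases and their scaffold, 3 were higher (Qars, Dars, Farsb), 3 lower (Tarsl2, Farsa, Hars) and 7 did not pass the test, no larger a share either way than among all tested genes (31.9% higher and 30.6% lower). Their median was 0.05, beside 0.33 for the 11 synthetases above. Qars, for glutamine, had 323, 310.2 and 324 CPM in TKO-2i compared with 186, 184 and 186 CPM in TKO-serum, without overlap (log2 fold change of 0.78 ± 0.05 SE, edgeR quasi-likelihood test with Benjamini-Hochberg adjusted p = 2.2e-06). Tarsl2, a second threonine enzyme, fell (log2 fold change of -0.65 ± 0.09 SE, edgeR quasi-likelihood test with Benjamini-Hochberg adjusted p = 0.00027), while Tars rose. Among 17 mitochondrial synthetases, 8 were higher, beside 31.9% of all tested genes, with a median of 0.16 over the list. Vars2 (valine) had the largest rise of these (log2 fold change of 0.82 ± 0.07 SE, edgeR quasi-likelihood test with Benjamini-Hochberg adjusted p = 1.6e-05). The difference between these lists was not tested.

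**Figure D3:**
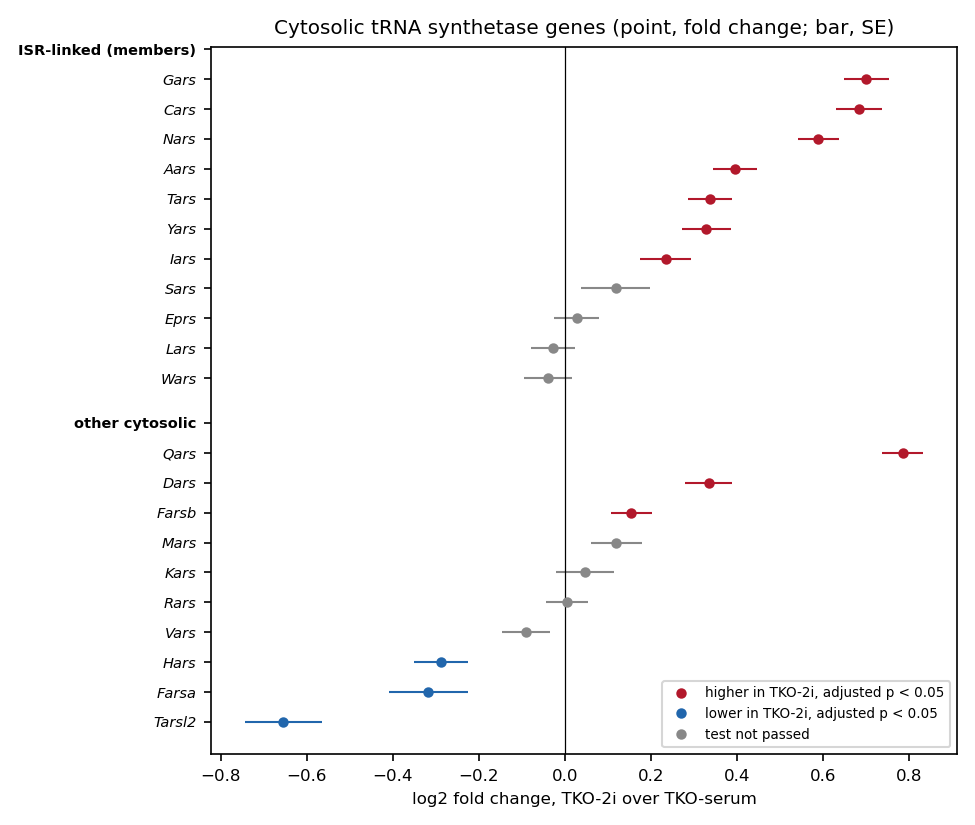
Log2 fold change of TKO-2i over TKO-serum (horizontal axis) for cytosolic tRNA synthetase genes in 2 sets, with points for the fold change, bars for its SE and colours for the test. Of the 11 genes of the first set 7 were higher and 0 lower, and of the other set 3 were higher and 3 lower. The other set ranged from Tarsl2 (-0.65) to Qars (0.78), and the difference between the sets was not tested.

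Upstream of Atf4, 1 of the 4 eIF2 kinase genes passed the test. Eif2ak4 encodes GCN2, the kinase that senses uncharged tRNA, and had 36.3, 38.2 and 34.9 CPM in TKO-2i against 25.3, 26.0 and 26.9 CPM in TKO-serum. It was higher in every TKO-2i library (log2 fold change of 0.48 ± 0.06 SE, edgeR quasi-likelihood test with Benjamini-Hochberg adjusted p = 9.7e-05). The kinases for haem (Eif2ak1), double-stranded RNA (Eif2ak2) and endoplasmic reticulum stress (Eif2ak3) had log2 fold changes of -0.10, 0.19 and -0.08 and did not pass the test (adjusted p = 0.094, 0.17 and 0.17 in edgeR's quasi-likelihood F-test after Benjamini-Hochberg adjustment). Eif2ak2 passed with length-scaled TPM counts (0.46) and with the replicate block (0.19), and Eif2ak1 with at least 10 counts in every sample (-0.14). Impact, an inhibitor of GCN2 activation, was lower, at 178, 180.4 and 175 CPM in TKO-2i compared with 234, 234 and 225 CPM in TKO-serum (log2 fold change of -0.38 ± 0.05 SE, edgeR quasi-likelihood test with Benjamini-Hochberg adjusted p = 0.00017). Eif2b5, the catalytic subunit of the eIF2B exchange factor that phosphorylated eIF2 blocks, was higher (log2 fold change of 0.86 ± 0.06 SE, edgeR quasi-likelihood test with Benjamini-Hochberg adjusted p = 3.4e-06). Over all 16 genes of eIF2 and its regulators, 5 were higher (Eif2ak4, Ppp1r15b, Eif2s2, Eif2b4, Eif2b5) and 4 lower (Impact, Eif2a, Gcn1l1, Eif2b3), beside 31.9% and 30.6% of all tested genes. The other 7 did not pass the test, and the median of the 16 was 0.01. Phosphorylation of eIF2 was not measured in these libraries.

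Of 19 further genes known as ATF4 targets, 11 were higher and 5 lower (Slc38a2, Ddit4, Stc2, Slc7a3, Gadd45a), beside 31.9% and 30.6% of all tested genes. The other 3 did not pass the test, and the median of the 19 was 0.45. Pck2, the mitochondrial enzyme that makes phosphoenolpyruvate, had 81.4, 76.3 and 75.2 CPM in TKO-2i against 24.3, 20.2 and 24.5 CPM in TKO-serum (log2 fold change of 1.76 ± 0.08 SE, edgeR quasi-likelihood test with Benjamini-Hochberg adjusted p = 5.1e-07). Slc38a2 encodes the neutral amino acid transporter SNAT2, a classical target in amino acid starvation, and went the other way. It had 95.8, 113 and 98.2 CPM in TKO-2i compared with 339.6, 363 and 342 CPM in TKO-serum, far lower in every TKO-2i library (log2 fold change of -1.77 ± 0.07 SE, edgeR quasi-likelihood test with Benjamini-Hochberg adjusted p = 3e-07).

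Genes of the other stress pathways went both ways, as all tested genes did (31.9% higher and 30.6% lower), and nothing particular to these pathways is read from their counts. Among 18 genes of endoplasmic reticulum chaperones and of the XBP1 and ATF6 arms, 8 were higher, 6 lower and 4 did not pass the test, with a median of -0.06. Ern1, the sensor that splices Xbp1, was higher (log2 fold change of 0.61 ± 0.09 SE, edgeR quasi-likelihood test with Benjamini-Hochberg adjusted p = 0.00044). The call of Ern1 was lost with limma on log2(TPM + 1) (0.36) and on log2(TPM + 0.1) (0.42). Atf6, the sensor of the other arm, was lower (log2 fold change of -0.58 ± 0.06 SE, edgeR quasi-likelihood test with Benjamini-Hochberg adjusted p = 3.5e-05). Of 8 mitochondrial chaperones and proteases, 2 were higher (Clpx, Lonp1), 3 lower (Hspd1, Trap1, Yme1l1) and 3 did not pass the test, with a median of -0.06. Hspd1, the mitochondrial chaperonin, was lower (log2 fold change of -0.37 ± 0.06 SE, edgeR quasi-likelihood test with Benjamini-Hochberg adjusted p = 0.0006), and Clpx, a protease subunit, was higher (log2 fold change of 0.26 ± 0.05 SE, edgeR quasi-likelihood test with Benjamini-Hochberg adjusted p = 0.0023). The call of Clpx was lost with limma on log2(TPM + 1) (0.17) and on log2(TPM + 0.1) (0.18).

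The levels of the 37 genes spanned a wide range. Mean TPM over the 6 libraries ran from 390.1 for Asns, 383.9 for Eif4ebp1 and 253.8 for Gars to 1.14 for Aldh1l2 and 0.0953 for Fgf21. In TKO-serum alone the order differed, since Eif4ebp1 (360.1 ± 10.9 TPM), Gars (200.1 ± 2.32 TPM), Psat1 (181 ± 8.60 TPM) and Nars (169 ± 3.62 TPM; SD, n = 3) were all above Asns (162 ± 9.24 TPM), with Nars within 1 SD of Asns. In TKO-2i, Asns (618 ± 43.1 TPM) was above Eif4ebp1 (408 ± 19.1 TPM). Replicates were close, with a median coefficient of variation of CPM of 6.05% in TKO-2i and 4.51% in TKO-serum over the tested genes of the group, beside 9.93% and 6.55% over all tested genes. The genes compared were not matched for abundance, and this difference was not tested. For 24 of the 37 genes 1 annotated transcript carried over 80% of the TPM in every library, such as Asns-201 with a mean of 96.4% in TKO-2i and 96.2% in TKO-serum. Eif4ebp1 was divided, with 60.6% and 56.9% on Eif4ebp1-201 and the rest on Eif4ebp1-202, a transcript annotated without a coding sequence.

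ATF4 with a C/EBP partner binds the C/EBP-ATF response element, so promoters were searched for its core, TGATGNAA, on both strands. RefSeq promoter windows (GRCm38.p6, 250 bases before to 50 after the start) were at hand for 30 of the 37 genes, all but Eif4ebp1, Aldh1l2, Cth, Wars, Nars, Cars and Lars. The core was in the window of 13 of the 30 (43.3%), beside 1219 of 27025 genes with a window (4.51%). The form TGATGCAA, which is contained in the first motif, was in 10 of the 30 (33.3%), beside 279 of 27025 (1.03%). Because the genes were listed as known targets of ATF4, these shares are not independent of the choice. Of the 12 tested genes with a match, 11 were higher in TKO-2i and 0 lower, with a median log2 fold change of 0.79, and Chac1 did not pass the test. Of the 17 tested genes without one, 10 were higher and 3 lower, with a median of 0.20. Over all tested genes with a window, 34.6% were higher and 34.6% lower among the 353 that hold it, and 35.8% were higher and 30.1% lower among the 12087 that do not.

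The matches of the 5 genes with a window match and at least a 2-fold rise are printed first, then those of 2 synthetases and of Chac1, which did not pass the test. Each is a run of 30 bases, 5′ to 3′ on the strand that reads TGATGNAA, with the core in capitals.
Nupr1 (chr7:126625562-126625591, plus strand): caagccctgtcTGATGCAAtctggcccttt
Asns (chr6:7693214-7693243, minus strand): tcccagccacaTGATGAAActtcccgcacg
Atf3 (chr1:191183425-191183454, plus strand): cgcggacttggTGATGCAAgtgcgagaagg
Pycr1 (chr11:120643833-120643862, minus strand): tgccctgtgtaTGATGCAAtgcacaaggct
Vldlr (chr19:27216809-27216838, minus strand): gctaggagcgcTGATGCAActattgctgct
Gars (chr6:55037960-55037989, minus strand): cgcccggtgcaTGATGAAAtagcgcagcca
Tars (chr15:11399655-11399684, plus strand): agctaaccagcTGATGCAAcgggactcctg
Chac1 (chr2:119351038-119351067, minus strand): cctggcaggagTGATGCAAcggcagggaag
Read along the gene, the core begins 110 bases before the RefSeq start in Nupr1 and Atf3 and 23 before it in Asns. The distance is 103 bases in Pycr1, 200 in Vldlr, 30 in Gars, 15 in Tars and 193 in Chac1. GENCODE places some starts elsewhere, so the matches of Nupr1, Asns, Atf3 and Vldlr lie inside the GENCODE coordinates of the gene, and those of Nupr1 and Asns inside the transcript with most of its TPM. Atf4, Aldh18a1, Psat1 and Mthfd2 rose without these letters in their window. A match is a description, not a site or a cause, and the lack of one says only that the letters are not in this window.

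Spread between the replicates differed among the genes. In CPM, TKO-2i replicate 2 was the lowest of its group for 24 of the 36 tested genes (66.7%, against 39.9% of all tested genes) and the highest for 7 (19.4%, against 40.2%), which were Cebpg, Vldlr, Aldh1l2, Iars, Eprs, Lars and Xpot. TKO-serum replicate 2 was likewise the lowest of its group for 22 (61.1%, against 38.8%). In TPM the order was reversed in TKO-2i, with replicate 2 the highest for 29 of the 36 (80.6%, against 65.9% of all tested genes) and the lowest for 1, so the place of this library depends on the scale. Without TKO-2i replicate 2, Phgdh and Sars passed the test as higher in TKO-2i, both with a log2 fold change of 0.19. The counts of genes called lower (4) and at least 2-fold higher (between 6 and 7) were nearly the same with any 1 library left out, and the number called higher lay between 20 and 26. For 13 of the 37 genes, Ddit3, Cebpg, Nupr1, Eif4ebp1, Phgdh, Aldh1l2, Pycr1, Aars, Iars, Eprs, Tars, Yars and Xpot, the summed counts lay at least 0.05 from a whole number in 1 library or more, as dividing reads between genes can leave, and such levels depend on that division.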

How the data were processed

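For each library the authors deposited estimated counts of reads per transcript, which are not normalised and mostly not whole, and TPM, scaled by them for length and to a fixed sum. The quantifier, its version and its index are not given in the sources used here, although the study's methods name Tophat V2, and the submitters' processing notes name mm10. Transcripts were matched to GENCODE M21 (GRCm38), 99.86% of 136288, and estimated counts and TPM were summed per gene. Counts were rounded, filtered with filterByExpr, normalised by TMM and tested in edgeR 4.0.16 (R 4.3.3) with glmQLFit and glmQLFTest, culture condition as the only factor and Benjamini-Hochberg adjustment over 18177 genes. SE is the log2 fold change divided by the square root of F. The procedure was tested on simulated data. Ddit3 has 2 annotated gene identifiers, and the one with more counts was used.

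Other ways of processing were DESeq2 1.42.0, its size factors used in edgeR, TMM factors from outside chromosomes 6 and 11, no filter, at least 10 counts in every sample, length-scaled TPM counts, limma 3.58.1 on log2(TPM + 1) and log2(TPM + 0.1), a replicate block and each library left out. Any of the 37 genes could be named. From each further list the largest called rise and fall were named, apart from 1 that is not reported here, as were the eIF2 kinases and the Dnmt genes. Other names given beside a count of 5 or fewer, the marker genes and Pycrl were chosen after their values were seen. The genes and lists were chosen with earlier results of these data known. Libraries of other cells were not analysed here.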

Additional observations from a re-analysis of the deposited data

How the results depend on the processing

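Under the 9 other ways of processing and with each library left out, 861 of the values for single genes kept their direction and their side of the threshold, 32 kept their direction and were no longer past it, 11 kept it and came past it, and 11 turned. Those that turned were all of genes that had not passed the test. They were Lars with TMM factors from outside chromosomes 6 and 11 (0.01), Eprs with at least 10 counts in every sample (-0.01), with limma on log2(TPM + 1) and on log2(TPM + 0.1) (both -0.05) and without TKO-2i replicate 2 (-0.01, in a range of -0.01 to 0.05 over the libraries left out), Phgdh with limma on both scales (both -0.04) and without TKO-2i replicate 1 (-0.02, in a range of -0.02 to 0.19), Aldh1l2 with limma on log2(TPM + 1) (-0.01) and on log2(TPM + 0.1) (-0.0027), and Wars without TKO-2i replicate 2 (0.01, in a range of -0.09 to 0.01). The cause was not tested.

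With limma on log2(TPM + 1), 3 of the 37 genes were at least 2-fold higher (Asns, Nupr1 and Atf4) in place of 7, and 5 with log2(TPM + 0.1). Atf3 and Vldlr, which are low, were under 2-fold only with the larger added value, which compresses low genes, while Pycr1 (0.97 and 0.99) and Aldh18a1 (0.96 and 0.99) were just under it with both. Shmt2 and Eif4ebp1 (both 0.18), Tars (0.21), Yars (0.22), Eif2ak4 (0.31) and Vars2 (0.53) also had smaller log2 fold changes with log2(TPM + 1) and still passed the test, and those of Psph (0.45) and Ppp1r15a (0.31) were larger with length-scaled TPM counts. With log2(TPM + 1), of all genes 575 were at least 2-fold higher and 1171 at least 2-fold lower, in place of 1403 and 2839. With at least 10 counts in every sample, which tests fewer genes, 1732 genes were at least 2-fold lower. The replicate numbers are shared by both conditions, and deviations of same-numbered libraries had r of 0.242, 0.329 and 0.014, and whether the numbers mark a pairing was not tested further. With the replicate block, 12539 genes passed the test in place of 11361, and 27 of the 37 genes were higher, with Cebpg, Aldh1l2 and Sars added, and 4 lower. Outside the 37 genes, Eif2ak2 also came past the threshold with the block.

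The 3 libraries a condition, 1 cell line and 1 comparison of media limit what these values show. RNA gives no measure of eIF2 phosphorylation, translation or amino acid levels. Genes near 3 counts, such as Fgf21, were left out by the filter on low counts, and Fgf21 did not pass the test without it.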
